A study of Mus musculus with 16 samples.

Results

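The comparison described here set livers of wild type mice on a western diet (n = 4 mice, 1 array each) against livers of wild type mice on chow (n = 4), which makes 8 of the 16 arrays in the series. The members are these 8 arrays, chosen by their labels alone. All mice were male C57Bl/6Hsd, were 10 months old, had been on their diet for 6 months from an age of 4 months, and were fasted overnight before the liver was taken. The other 8 arrays are livers of SHP-/- mice on western diet or chow (n = 4 each), which share strain, sex, age and fasting with the wild type mice. They enter here through the common estimate of spread and through one test of the difference between the genotypes. SHP is the nuclear receptor encoded by Nr0b2. Its probe was at background in all 8 wild type arrays, so it gives no check of the genotype labels. The labels do not give the composition of either diet. Arrays of a group came from separate mice.

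A western diet is a feed rich in fat, usually with sugar and cholesterol, and in mice it is used to bring about fatty liver. The liver builds fatty acids under the control of SREBP-1c and LXR, packs them into triglyceride and lipid droplets, makes cholesterol under SREBP-2, and turns cholesterol into bile acids for export. When lipid builds up over a long time, macrophages gather around loaded hepatocytes, hepatic stellate cells lay down collagen, and hepatocytes give up part of their specialised metabolism.

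RNA was read on Illumina mouse BeadChips, in which each probe is a short oligonucleotide on many beads and its brightness follows the amount of the matching transcript. Levels below are normalized log2 intensities. A difference is western diet minus chow on that scale, and it is given with its standard error (SE) from limma. A gene passed when its Benjamini-Hochberg adjusted p was below 0.05 over 9095 genes. Brightness differs between probes, so levels are compared between mice and never between genes. Within each wild type group the arrays correlated at Pearson's r of 0.9838 or more across the 9095 genes. The share of probes detected was 49.5% ± 1.05 on western diet and 45.1% ± 1.25 on chow (SD, n = 4 each), with no overlap (exact permutation test, two-sided p = 0.0286, the smallest that 70 arrangements allow). The mean raw signal was 360 ± 16.5 on western diet and 319 ± 40.1 on chow (SD, n = 4 each), and this difference did not pass (exact permutation test, two-sided p = 0.0857).

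Western diet changed 2693 of 9095 genes, or 29.6%. Of these, 1407 were higher on western diet (15.5% of all genes tested) and 1286 were lower (14.1%). The counts by gene list below are to be read beside these shares. Large changes leaned upward, since 355 genes rose and 93 fell by more than 2-fold, and 59 rose and 10 fell by more than 4-fold. The values of all 4 western livers lay outside those of all 4 chow livers for 2639 genes (29%). Of the genes that rose, 93 had every probe at background in all 4 chow livers and a detected probe in all 4 western livers, and of those that fell 1, Adamts13, showed the reverse. The split between rises and falls depends on how the arrays are scaled to each other. Quantile normalization, used throughout, gave a median difference of -0.03 over all genes, and scaling by array medians gave a median of 0.14, with 2078 genes higher and 290 lower. Small falls are therefore relative to the typical gene.

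**Figure D1:**
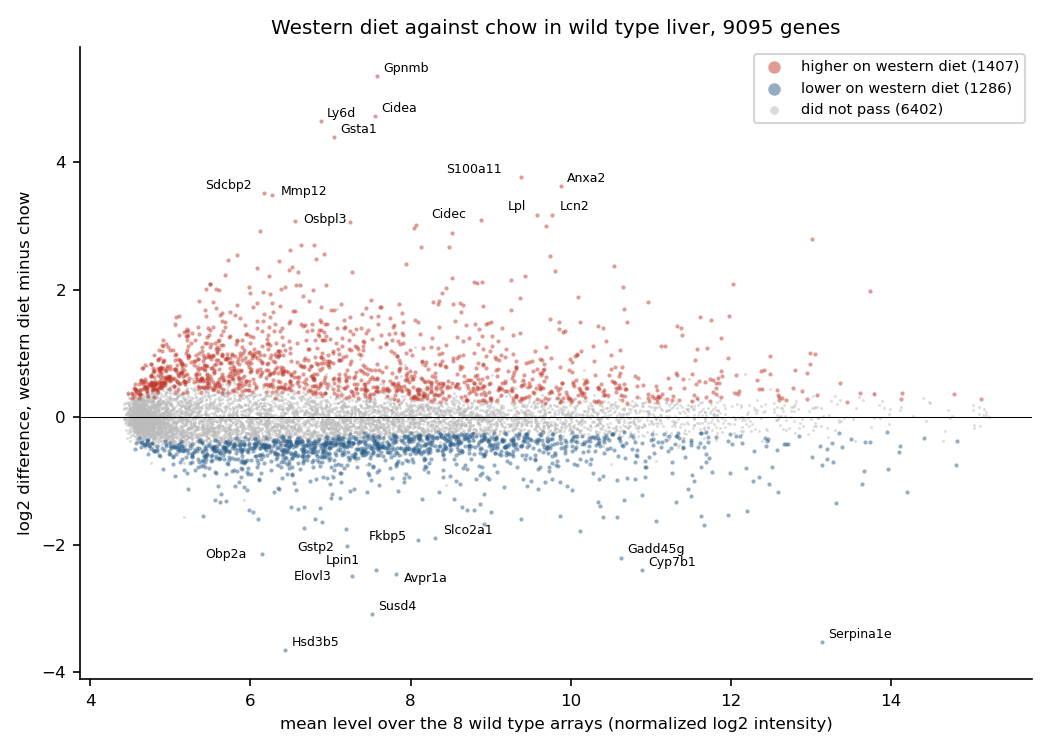
Each point is 1 of 9095 genes, with its mean level over the 8 wild type arrays on the x axis (normalized log2 intensity) and its western minus chow difference on the y axis (log2). Red points are the 1407 genes that rose, blue points the 1286 that fell, and the 12 largest rises and 12 largest falls without overlap between the diets are named; the upper tail reaches 5.35 and the lower one -3.65.

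The largest single rise was that of Gpnmb, a glycoprotein of lipid-laden macrophages. It had 9.64, 11.50, 10.64 and 9.25 in western livers, against 4.36, 4.57, 5.64 and 5.04 in chow livers, where 3 of 4 arrays detected it. Ly6d, a small surface protein, had 8.86, 9.41, 10.05 and 8.48 on western diet and 4.34, 4.61, 4.81 and 4.46 on chow (difference 4.65 ± 0.29 SE, adjusted p = 1.71e-09), and only 1 of 4 chow arrays detected it. Sdcbp2, a scaffold protein with PDZ domains, had 7.64, 7.56, 8.28 and 8.23 on western diet and 4.33, 4.60, 4.39 and 4.31 on chow. Every chow array had Sdcbp2 at background, so the rise is given as at least 8.95-fold (adjusted p = 1.52e-11). Osbpl3, a member of the oxysterol-binding protein family, rose by 3.08 ± 0.20 SE, adjusted p = 2.92e-09. The 12 largest rises were taken only from genes without overlap between the diets, so the separation of these genes follows from the choice.

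At the other end stood Hsd3b5, a steroid dehydrogenase of male mouse liver, with 4.44, 5.16, 4.26 and 4.57 on western diet, detected in 1 of 4 arrays, against 9.01, 8.02, 6.72 and 9.29 on chow. Avpr1a, the vasopressin receptor of hepatocytes, had 6.78, 7.29, 6.20 and 6.09 on western diet and 9.14, 8.88, 8.85 and 9.29 on chow (difference -2.45 ± 0.24 SE, adjusted p = 5.74e-07). Gadd45g, a stress-inducible growth arrest gene, fell by 2.20 ± 0.23 (SE), and Slco2a1, a prostaglandin transporter, by 1.90 ± 0.12 (SE). Fkbp5, a co-chaperone that glucocorticoids induce, had 6.75, 6.48, 8.51 and 6.80 on western diet and 8.58, 9.11, 9.10 and 9.45 on chow. The third western liver, at 8.51, lay close to the chow livers while the other 3 lay well below them, and the difference was -1.93 ± 0.39 SE, adjusted p = 0.000948. Further falls were those of Obp2a, a lipocalin, at -2.15, and Gstp2, a glutathione transferase, at -2.02. Gstp2 has a close copy, Gstp1, whose transcript its probe may also bind.

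Genes of fatty acid and triglyceride synthesis were mostly higher on western diet or did not pass. Of 20 tested members 10 rose and 2 fell, with a median difference of 0.32 against -0.03 over all genes. Srebf1, the transcription factor SREBP-1 that switches on lipogenic enzymes, had 7.04, 6.97, 7.25 and 7.38 on western diet, against 5.26, 5.63, 4.93 and 5.68 on chow (difference 1.79 ± 0.29 SE, adjusted p = 0.000124). Scd1, the desaturase that makes oleate, had 14.84, 14.54, 14.79 and 14.76 on western diet and 12.45, 12.91, 12.83 and 12.80 on chow, a 3.96-fold rise (adjusted p = 7.12e-09). Thrsp, a lipogenic regulator, ranged widely among western livers, at 7.23, 6.43, 9.06 and 8.50, yet all 4 exceeded the chow values of 4.61, 5.75, 5.06 and 5.32 (difference 2.62 ± 0.71 SE, adjusted p = 0.00937). The lipogenic programme did not move as a block. The probe for Fasn, fatty acid synthase, was detected in 2 of 4 western and 1 of 4 chow livers and differed by -0.01 ± 0.18 SE, adjusted p = 0.973, so its level was too dim to compare. Lpin1, the phosphatidate phosphatase that fasting and glucocorticoids induce, fell to 5.62, 5.70, 8.03 and 6.11 on western diet, against 8.33, 8.91, 8.88 and 8.95 on chow (difference -2.40 ± 0.52 SE, adjusted p = 0.00183).

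Lipid droplet genes and targets of PPARgamma rose in 8 of 18 tested members and fell in 2 (median difference 0.49). PPARgamma is the nuclear receptor of fat storage, and its gene Pparg rose by 1.16 ± 0.19 (SE). Cidea, a droplet-fusion protein of brown fat that is scarce in healthy liver, had 10.93, 8.16, 9.12 and 11.46 on western diet and 5.80, 5.29, 5.33 and 4.38 on chow, a 26.3-fold rise (adjusted p = 1.39e-05). Only 3 of 4 chow arrays detected Cidea, and its difference of 4.72 ran from 3.63 to 5.30 under the other settings. Cidec, a related protein of large droplets, had 10.57, 9.76, 10.71 and 10.66 on western diet and 7.73, 7.91, 7.75 and 5.93 on chow (difference 3.10 ± 0.35 SE, adjusted p = 2.86e-06). Both were lowest, among western livers, in the second. Lpl, the lipoprotein lipase that adult hepatocytes barely make, ran differently: at 10.79, 12.07, 11.43 and 10.36 on western diet and 7.75, 8.11, 7.90 and 8.19 on chow it was highest in the second western liver. Vldlr, a lipoprotein uptake receptor, rose by 1.75 ± 0.32 (SE). In contrast, Plin2, the main droplet coat protein of hepatocytes, differed by 0.21 ± 0.17 SE, adjusted p = 0.401, and G0s2, an inhibitor of the triglyceride lipase ATGL, fell by 1.30 ± 0.29 (SE). Of the defining adipocyte markers, Plin1 and Retn were at background in all 8 arrays and Adipoq was detected in 0 of 4 western and 1 of 4 chow livers. Lep, the fourth, was detected in 3 of 4 western and 3 of 4 chow livers and differed by -0.17 ± 0.15 SE, adjusted p = 0.408.

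Genes of the cholesterol synthesis list moved the other way. Of 18 tested members 7 fell and 0 rose, with a median difference of -0.45, and 11 fell in a fit on the 8 wild type arrays alone. The western and chow values did not overlap for 10 members, all lower on western diet, as they did for 14.2% of all genes. Sqle, squalene epoxidase, had 4.66, 4.73, 4.62 and 4.52 on western diet, detected in 2 of 4 arrays, against 6.64, 6.29, 5.83 and 5.95 on chow, where all 4 arrays detected it (difference -1.55 ± 0.26 SE, adjusted p = 0.000221). Cyp51, the lanosterol demethylase, had 5.51, 5.13, 5.20 and 5.31 on western diet and 6.98, 6.82, 6.66 and 6.65 on chow (difference -1.49 ± 0.23 SE, adjusted p = 7.28e-05). Tm7sf2, a sterol reductase, fell by 1.60 ± 0.17 (SE) and Stard4, a cholesterol carrier, by 1.16 ± 0.30 (SE). Hmgcs1, the synthase that feeds this pathway, was the brightest member that did not pass, at -0.16 ± 0.18 SE, adjusted p = 0.55.

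Sterol exit genes rose instead. Of 9 tested members, most of them targets of the oxysterol receptor LXR, 6 rose and 0 fell (median difference 0.57). Abcg5, a subunit of the transporter that pumps cholesterol into bile, had 11.89, 12.25, 11.98 and 12.04 on western diet and 10.66, 10.66, 10.58 and 11.09 on chow (difference 1.29 ± 0.12 SE, adjusted p = 4.45e-07). Its partner Abcg8 rose less, by 0.61 ± 0.12 (SE). Pltp, a phospholipid transfer protein of plasma, rose by 1.28 ± 0.14 (SE), and Npc2, which carries cholesterol out of lysosomes, by 1.10 ± 0.13 (SE). Among 16 apolipoprotein and lipoprotein assembly genes 2 rose and 5 fell (median difference -0.08), beside 15.5% and 14.1% of all genes. Apoa4, an apolipoprotein that fat feeding induces, had 14.62, 13.80, 14.59 and 14.62 on western diet and 12.08, 11.76, 12.04 and 10.61 on chow, a 6.91-fold rise, while Apom, which carries sphingosine-1-phosphate on HDL, fell by 0.94 ± 0.17 (SE).

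Bile acid synthesis enzymes moved in both directions. Of 15 tested 2 rose and 4 fell (median difference -0.04), beside 15.5% and 14.1% of all genes. Cyp7a1, the rate-limiting enzyme of the classical pathway, had 9.32, 8.79, 10.34 and 10.97 on western diet and 7.33, 8.41, 7.62 and 7.58 on chow, without overlap (difference 2.12 ± 0.38 SE, adjusted p = 0.000401). Cyp2c70, which makes muricholic acids in mice, rose by 1.40 ± 0.28 (SE). Cyp7b1, of the alternative pathway, had 9.62, 10.30, 9.04 and 9.81 on western diet and 12.42, 11.63, 11.79 and 12.51 on chow, a 5.26-fold fall (adjusted p = 4.64e-06). Cyp27a1, which opens that pathway, fell by 0.51 ± 0.11 (SE). Cyp8b1, the 12-hydroxylase that directs synthesis to cholic acid, had 13.30, 12.01, 11.97 and 13.29 on western diet and 14.11, 14.05, 13.93 and 13.85 on chow (difference -1.34 ± 0.24 SE, adjusted p = 0.000329), with the second and the third western liver below the other 2. Of 14 transport and signalling genes 0 rose and 5 fell (median difference -0.10), and with median scaling 1 fell and the median was 0.01. The export pump Abcb11 differed by -0.21 ± 0.15 SE, adjusted p = 0.329. The uptake carrier Slc10a1 was lower by 0.54 ± 0.14 (SE), a call that is lost with median scaling.

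**Figure D2:**
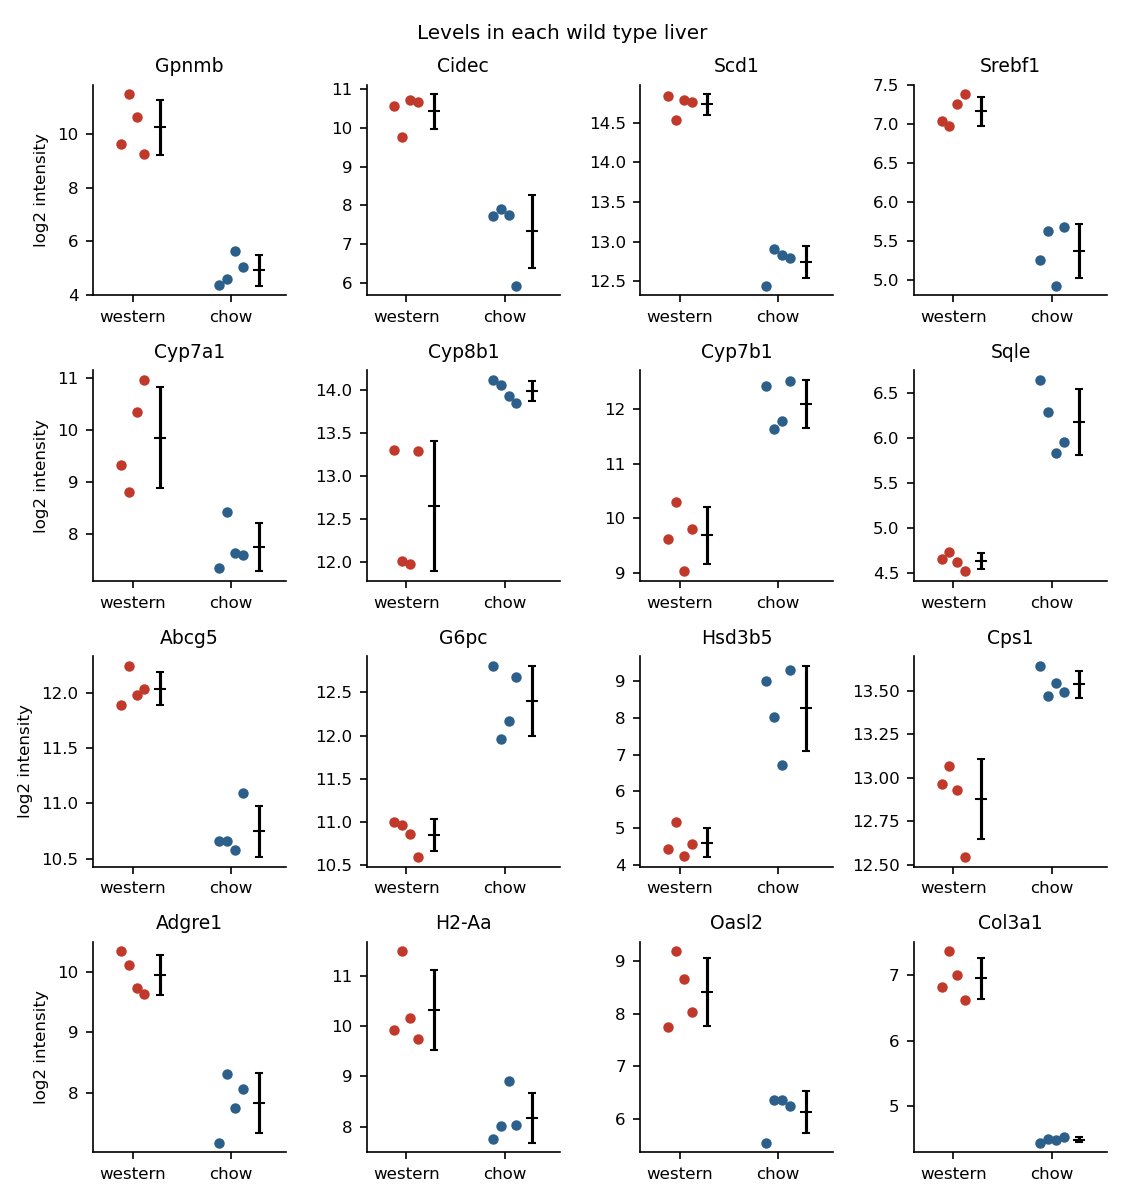
Normalized log2 intensity of 16 genes in each wild type liver, with 4 western livers in red at the left and 4 chow livers in blue at the right of every panel; the black dash and bar are the mean and SD of each group (n = 4). In all 16 panels the 4 western values lie wholly above or wholly below the 4 chow values, as for 29% of all genes tested. The 16 genes are a selection, and other named genes whose groups overlap, such as Abcb11, Cd9 and Cxcl13, are not drawn. Each y axis has its own range and does not start at 0.

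Several genes of fasting metabolism were lower on western diet. Among 18 targets of PPARalpha, the receptor that drives fatty acid burning in fasting, 0 rose and 6 fell (median difference -0.15), and 3 fell with median scaling or without the third chow liver, the second western liver or the third western liver. Angptl4, a lipase inhibitor induced by fasting, fell by 1.0 ± 0.19 (SE). Cyp4a14, a fatty acid hydroxylase, had 13.85, 13.48, 13.16 and 13.99 on western diet and 14.79, 14.91, 14.79 and 14.69 on chow (difference -1.18 ± 0.43 SE, adjusted p = 0.0479), and this call was lost in 12 of 19 other settings, among them the fits without any 1 of the 8 arrays. Ppara itself differed by -0.44 ± 0.19 SE, adjusted p = 0.0909 and Fgf21, a fasting hormone, by 0.12 ± 0.34 SE, adjusted p = 0.828. Glucose handling genes numbered 13, of which 3 rose and 5 fell (3 fell with median scaling). G6pc, the last enzyme of glucose output, had 11, 10.96, 10.85 and 10.59 on western diet and 12.81, 11.96, 12.17 and 12.68 on chow (difference -1.55 ± 0.18 SE, adjusted p = 4.91e-06). Pck1, the enzyme that commits carbon to gluconeogenesis, fell by 1.28 ± 0.23 (SE), and Irs2, an insulin receptor substrate that rises in fasting, by 1.02 ± 0.27 (SE). Slc2a2, the glucose transporter of hepatocytes, rose by 0.97 ± 0.21 (SE), a call that was lost when the probes of the gene were averaged.

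Amino acid enzymes fell in 10 of 20 tested members of the urea cycle and catabolism list and rose in 1 (median difference -0.39). Got1, the cytosolic aspartate transaminase, fell by 1.16 ± 0.22 (SE), and Asl, the urea cycle lyase, by 1.07 ± 0.24 (SE). Cps1, the entry enzyme of the urea cycle, had 12.96, 13.07, 12.93 and 12.54 on western diet and 13.64, 13.47, 13.54 and 13.49 on chow (difference -0.66 ± 0.15 SE, adjusted p = 0.00272). Of 18 methionine, one-carbon and taurine genes 0 rose and 7 fell, or 3 with median scaling. Cbs, which sends homocysteine to cysteine, was at -0.98 ± 0.15 SE, adjusted p = 7.15e-05. Xenobiotic P450s and their receptors had 1 rise and 7 falls among 20. Cyp1a2, which clears caffeine and many drugs, had 10.19, 9.72, 9.25 and 10.02 on western diet and 11.73, 11.22, 11.42 and 11.05 on chow (difference -1.56 ± 0.22 SE, adjusted p = 4.05e-05), and Nr1i3, the receptor CAR, fell by 1.13 ± 0.19 (SE).

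Male-biased liver genes, which depend on the pulsed growth hormone of male mice, had the lowest median difference of the 40 lists, at -0.81. Of 19 tested members 11 fell and 1 rose. Besides Hsd3b5 and Cyp7b1, Serpina1e, an alpha-1-antitrypsin paralog, fell to 10.34, 13.43, 11.24 and 10.48 on western diet, against 14.97, 14.74, 14.87 and 15.03 on chow. The second western liver stood nearest to chow for this gene, and close copies of the gene may share its probe. Susd4, a complement regulator, had 6.21, 5.58, 5.25 and 6.87 on western diet and 9.23, 8.86, 9.08 and 9.08 on chow (difference -3.09 ± 0.25 SE, adjusted p = 4.91e-08), and Elovl3, a fatty acid elongase, had 6.83, 5.94, 5.30 and 6.03 on western diet and 9.04, 8.12, 8.32 and 8.58 on chow (difference -2.49 ± 0.42 SE, adjusted p = 0.000192). The exception was Serpina12, the adipokine vaspin, which rose by 1.49 ± 0.30 (SE). Of 5 detected female-biased genes 0 passed in either direction with limma, although 1 was higher and 2 were lower at an unadjusted p below 0.05. In the growth hormone axis 2 of 11 genes rose and 3 fell, beside 15.5% and 14.1% of all genes. The median difference was -0.12, or 0.10 with median scaling. Igfbp3 rose by 0.79 and Stat5a by 0.75, and Ghr, the growth hormone receptor gene, did not pass, at 0.11 (limma adjusted p = 0.522). Igf1, the main growth factor under growth hormone, fell by 0.70 ± 0.13 (SE), and Igfbp2, an IGF binding protein, by 1.33 ± 0.25 (SE).

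Antioxidant genes rose. Of 18 NRF2 targets and glutathione enzymes 11 rose and 0 fell (median difference 0.56). Gsta1, a glutathione transferase that is scarce in resting mouse liver, had 8.77, 8.75, 9.44 and 9.99 on western diet and 4.49, 5.05, 5.15 and 4.69 on chow, where 2 of 4 arrays detected it (difference 4.39 ± 0.36 SE, adjusted p = 5.87e-08). Gsta2 rose by 2.03 ± 0.28 (SE), but the close sequences of the pair may let their probes bind both transcripts. Nfe2l2, which encodes NRF2, had 7.25, 6.86, 7.22 and 7.35 on western diet and 5.93, 6.07, 6.22 and 5.80 on chow (difference 1.17 ± 0.18 SE, adjusted p = 7.99e-05). Genes of the stress in the endoplasmic reticulum did not follow as a group, with 3 rises and 6 falls among 22, or 3 falls with median scaling. Over all genes 15.5% rose and 14.1% fell. Atf3, an immediate stress transcription factor, rose by 2.0 ± 0.20 (SE) and Chac1, a glutathione-degrading target of ATF4, by 1.46 ± 0.23 (SE), whereas Creld2, an endoplasmic reticulum chaperone, fell by 0.91 ± 0.19 (SE).

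Macrophage genes rose broadly. In RNA from whole tissue, more cells of a type and more RNA per cell cannot be told apart, and the same holds for fewer cells. Of 14 genes of lipid-associated macrophages, the cells that gather around dying lipid-filled hepatocytes, 12 rose and 0 fell (median difference 1.90). The mean level of the 14 genes ran between 8.75 and 9.77 in western livers and between 6.94 and 7.31 in chow livers. Trem2, the lipid-sensing receptor of these cells, had 6.58, 8.57, 8.28 and 6.88 on western diet and 4.40, 4.69, 4.88 and 4.68 on chow, where 1 of 4 arrays detected it. Mmp12, macrophage elastase, had 7.28, 8.84, 8.34 and 7.60 on western diet and 4.38, 4.28, 5.08 and 4.40 on chow, also detected in 1 of 4 chow arrays. In these genes, as in Gpnmb, the second and the third western liver were above the first and the fourth. Spp1, Cd68 and Csf1r were not analysed here.

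Resident Kupffer cell and general macrophage markers rose in 10 of 15 and fell in 1 (median difference 0.90). Adgre1, the marker gene of mature macrophages, had 10.34, 10.11, 9.73 and 9.64 on western diet and 7.17, 8.31, 7.75 and 8.07 on chow (difference 2.13 ± 0.21 SE, adjusted p = 5.09e-07). C1qb, a chain of complement C1q made by macrophages, rose by 1.49 ± 0.17 (SE). Of the markers that set resident Kupffer cells apart, Clec4f, their lectin receptor, rose by 0.75 ± 0.13 (SE) and Vsig4, their complement receptor, by 0.98 ± 0.13 (SE), while Timd4 differed by 0.46 ± 0.23 SE, adjusted p = 0.142, Marco by 0.13 ± 0.39 SE, adjusted p = 0.838, and Cd5l was at background in all 8 arrays. Cd163, the haemoglobin scavenger receptor, fell to 6.59, 5.63, 6.29 and 6.78 on western diet, against 7.45, 7.90, 8.29 and 8.66 on chow. Of 6 detected neutrophil and monocyte genes 4 rose, a count that was 2 without the first chow, the second western or the third western liver, on the 8 wild type arrays alone and in the authors' processed values, while Ngp and Camp were at background in all 4 chow livers and detected in 1 and 3 of 4 western livers. Of 10 T, B and NK cell markers 0 passed in either direction with limma, and 0 had an unadjusted p below 0.05 (median difference -0.07). Another 9 of the 21 listed were detected too rarely to be tested. Cd3e was detected in 3 of 4 western and 3 of 4 chow livers, Cd3d in 3 and 2, Cd79a in 2 and 2, and Nkg7 in 2 and 1. Cd8a was at background in all 8 arrays. Levels so close to background cannot show whether these cells changed.

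Antigen presentation genes rose wherever they could be tested. All 10 tested MHC class II genes passed upward, with a median difference of 1.64. Another 3 of the 13 listed were detected too rarely to be tested. H2-Aa, a class II alpha chain, had 9.92, 11.49, 10.16 and 9.75 on western diet and 7.76, 8.02, 8.91 and 8.04 on chow (difference 2.15 ± 0.34 SE, adjusted p = 0.000113), and Cd74, the invariant chain, rose by 1.69 ± 0.28 (SE). The second western liver was the highest for H2-Aa and the third chow liver was the highest of its group. Chemokines and their receptors rose in 13 of 19 and fell in 2 (median difference 0.91). Ccl4, a chemokine for monocytes and T cells, had 6.91, 7.78, 7.32 and 7.02 on western diet and 4.32, 4.48, 6.42 and 4.44 on chow, where the third liver alone detected it. Cxcl1, a neutrophil attractant, rose by 1.56 ± 0.27 (SE). Cxcl13, the B cell chemokine, went the other way at -1.60 ± 0.53 SE, adjusted p = 0.0296, with overlapping groups. This call was lost in 8 of 19 other settings, among them the fits without the second, the third or the fourth chow liver and without the second or the third western liver, and the difference was -1.01 without the second chow liver. Toll-like receptor and NF-kappaB genes rose in 15 of 24 and fell in 0 (median difference 0.73), led by Tlr2, a receptor for bacterial lipoproteins, at 1.68 ± 0.16 SE, adjusted p = 3.63e-07.

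Interferon-responsive genes rose in 16 of 21 and fell in 0, with a median difference of 1.21. Ifi27l2a, a small interferon-induced membrane protein, had 8.98, 10.23, 9.92 and 8.99 on western diet and 5.75, 6.89, 6.45 and 7.14 on chow (difference 2.97 ± 0.29 SE, adjusted p = 5.09e-07). Oasl2, a member of the oligoadenylate synthetase family, had 7.74, 9.19, 8.66 and 8.03 on western diet and 5.54, 6.35, 6.36 and 6.25 on chow (difference 2.28 ± 0.26 SE, adjusted p = 3.22e-06). Ifit3, which blocks viral RNA translation with its relatives, had 8.58, 9.62, 9.52 and 9.03 on western diet and 7.41, 7.46, 7.66 and 7.01 on chow (difference 1.80 ± 0.20 SE, adjusted p = 1.97e-06). Usp18, a brake on interferon receptor signalling, rose by 1.73 ± 0.25 (SE). Gbp2 and Gbp3, guanylate-binding proteins of cell-autonomous defence, rose by 1.41 ± 0.32 and 1.29 ± 0.25 (SE), though the third chow liver overlapped the western ones for both.

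Promoters are shown for this group because a classical interferon motif recurs among its members. The motif searched was GAAANNGAA, the core of the interferon-stimulated response element, on both strands, in windows of 250 bases before to 50 bases after each RefSeq gene start (build GRCm38.p6). It was chosen with the results known, after a longer form with a further A at its end had been searched first. Of 17 tested interferon genes with a window, 10 held it, against 650 of 7409 tested genes with a window (8.77%). Among the members that rose, 7 of 13 with a window held it, so it is not common to all. The windows of the 3 such members with the largest rises are printed 5′ to 3′ in gene direction, with the motif in capitals, which here lies on the opposite strand and so reads as its reverse complement. They are Ifit3 at chr19:34583279-34583578, Gbp2 at chr3:142620413-142620712 and Gbp3 at chr3:142559794-142560093, all on the plus strand. A match describes the letters and shows no binding.
Ifit3: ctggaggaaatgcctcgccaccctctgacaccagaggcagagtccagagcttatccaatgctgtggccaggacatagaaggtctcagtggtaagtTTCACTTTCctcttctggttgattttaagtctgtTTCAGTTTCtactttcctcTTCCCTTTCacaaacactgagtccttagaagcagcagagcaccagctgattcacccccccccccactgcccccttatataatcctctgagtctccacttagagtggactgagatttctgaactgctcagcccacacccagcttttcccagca
Gbp2: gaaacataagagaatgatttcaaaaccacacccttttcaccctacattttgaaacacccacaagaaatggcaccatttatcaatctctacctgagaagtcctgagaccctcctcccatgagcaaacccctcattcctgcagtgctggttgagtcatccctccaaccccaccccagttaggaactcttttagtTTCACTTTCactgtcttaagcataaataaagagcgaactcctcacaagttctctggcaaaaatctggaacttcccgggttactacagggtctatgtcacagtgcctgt
Gbp3: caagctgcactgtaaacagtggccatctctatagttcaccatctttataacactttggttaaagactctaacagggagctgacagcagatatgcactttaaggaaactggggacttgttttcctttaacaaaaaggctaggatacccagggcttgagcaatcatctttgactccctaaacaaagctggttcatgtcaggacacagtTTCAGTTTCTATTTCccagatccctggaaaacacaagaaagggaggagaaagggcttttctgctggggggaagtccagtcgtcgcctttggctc
For the cholesterol genes the core of the sterol regulatory element, TCACNCCA, was searched in the same way. It lay in 3 of 15 windows (Hmgcs1, Msmo1 and Srebf2), against 333 of 7409 tested genes (4.49%), and 1 of the 5 members that fell and had a window held it. That member was Srebf2, which encodes SREBP-2, the activator of cholesterol synthesis. It had 5.80, 6.01, 6.24 and 6.21 on western diet and 7.11, 7.01, 6.86 and 6.88 on chow (difference -0.90 ± 0.14 SE, adjusted p = 0.000103), and its window at chr15:82147019-82147318, plus strand, is shown with the motif in capitals.
Srebf2: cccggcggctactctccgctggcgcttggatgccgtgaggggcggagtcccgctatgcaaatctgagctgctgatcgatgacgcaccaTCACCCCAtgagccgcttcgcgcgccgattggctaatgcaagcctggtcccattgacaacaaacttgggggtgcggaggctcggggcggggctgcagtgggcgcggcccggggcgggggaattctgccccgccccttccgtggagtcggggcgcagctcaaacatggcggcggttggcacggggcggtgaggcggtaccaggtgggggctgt

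Secreted plasma proteins were mixed. Among 23 acute phase genes 7 rose and 2 fell. Lcn2, a siderophore-binding protein, had 10.44, 12.02, 12.30 and 10.65 on western diet and 7.39, 7.81, 8.62 and 8.88 on chow (difference 3.18 ± 0.35 SE, adjusted p = 2.11e-06). Orm2, an orosomucoid, rose by 1.89 ± 0.32 (SE), and Hamp2, a mouse hepcidin paralog, by 2.41 ± 0.48 (SE). Complement and coagulation factors fell in 10 of 26 and rose in 3 (median difference -0.22), and 5 fell with median scaling. C8b, a chain of the membrane attack complex, had 8.76, 10.25, 9.24 and 8.64 on western diet and 11.30, 10.83, 10.67 and 11.26 on chow (difference -1.79 ± 0.27 SE, adjusted p = 6.45e-05), and F7, the trigger protease of coagulation, fell by 0.75 ± 0.11 (SE). In the same livers 6 of 16 hepatocyte markers fell and 0 rose, and the mean level of the 16 ran between 11.96 and 12.08 in western and between 12.18 and 12.24 in chow livers. Of the defining ones, Cps1 fell by 0.66 ± 0.15 (SE). Ttr, transthyretin, at 0.12 ± 0.11 SE, adjusted p = 0.461, and Apoa1, at 0.08 ± 0.11 SE, did not pass. Asgr1, at -0.21 ± 0.09 SE, adjusted p = 0.0668, and Ahsg, at -0.12 ± 0.09 SE, did not pass either. The probe for Alb was detected in 1 of 4 western and 0 of 4 chow livers, so albumin was not measured by it. The part of this small shift in the falls of secreted and metabolic genes was not tested.

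**Figure D3:**
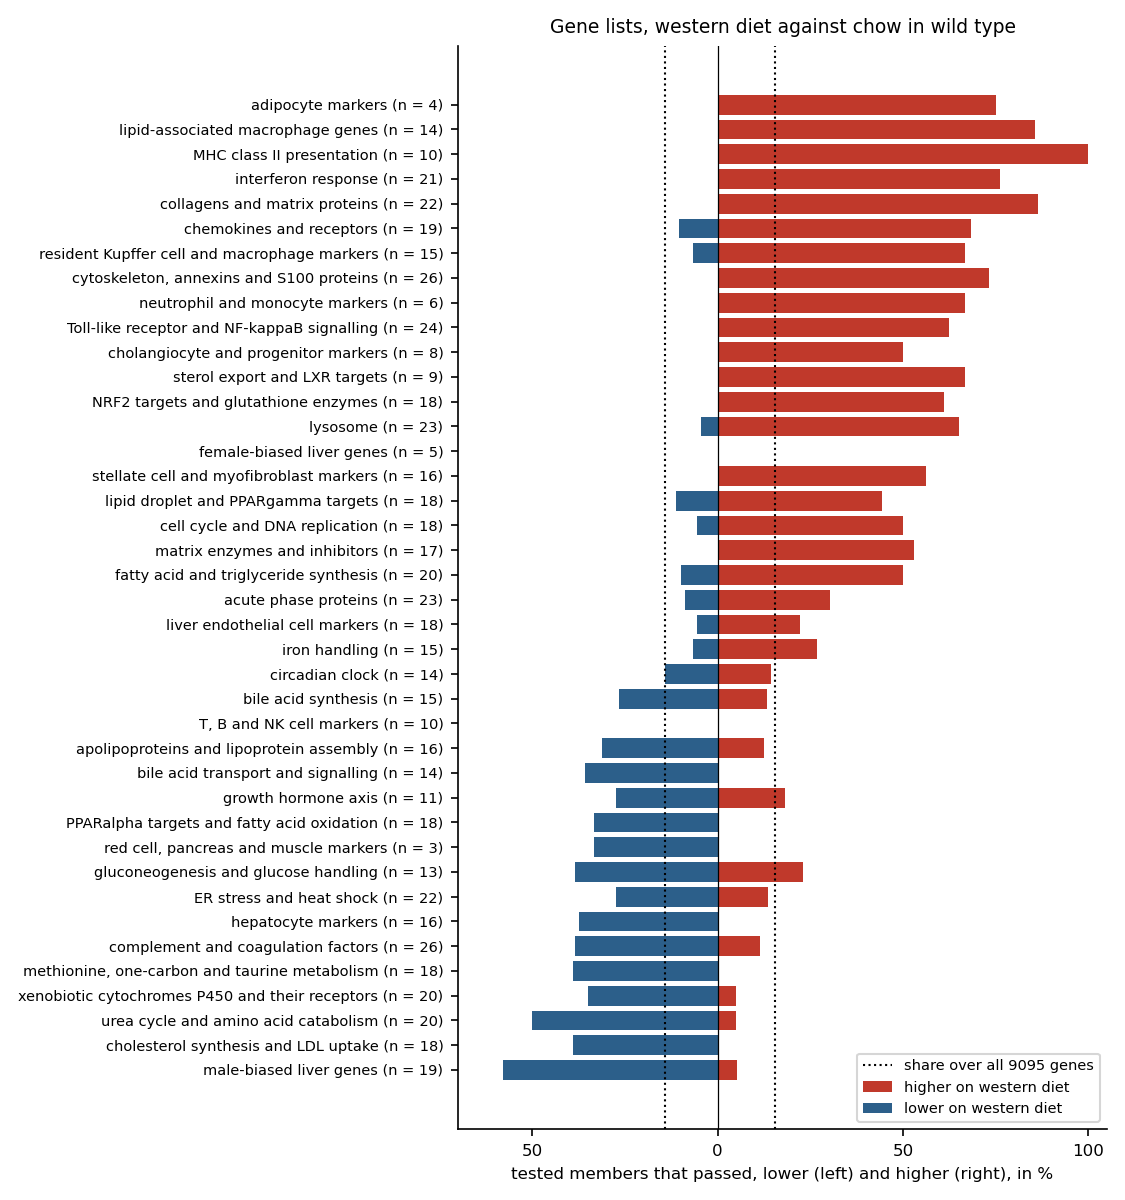
Share of each list's tested members that rose (red, to the right) or fell (blue, to the left) on western diet, in percent, with the lists ordered by median difference and the number of tested members in brackets. Dotted lines mark the shares over all 9095 genes, 15.5% higher and 14.1% lower; MHC class II reaches 100% higher, whereas male-biased genes have 11 of 19 lower.

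Matrix genes rose nearly throughout. Of 22 collagens and matrix proteins 19 rose and 0 fell, with a median difference of 1.07, and the groups did not overlap for 18, against 14.8% of all genes that lay wholly higher on western diet. Col3a1, a fibrillar collagen chain, had 6.82, 7.36, 7.0 and 6.62 on western diet and 4.44, 4.51, 4.48 and 4.53 on chow, where it was at background in all 4 arrays, so the rise was at least 4.54-fold (adjusted p = 9.86e-09). Col1a1, the main scar collagen chain, had 5.88, 6.91, 6.88 and 6.08 on western diet and 4.84, 4.53, 4.73 and 4.43 on chow, with 2 of 4 chow arrays above background (difference 1.81 ± 0.19 SE, adjusted p = 1.27e-06). Nid1, a basement membrane linker, rose by 1.78 ± 0.18 (SE) and Col6a1, of microfibrillar collagen, by 1.52 ± 0.19 (SE). Matrix enzymes and inhibitors rose in 9 of 17 and fell in 0. Timp1, the inhibitor of matrix metalloproteinases, had 5.97, 7.20, 7.21 and 5.76 on western diet and 4.51, 4.27, 4.53 and 4.49 on chow, at background in all 4 chow livers and thus at least 3.41-fold higher (adjusted p = 8.12e-06). Mmp13, a collagenase, had 4.88, 7.82, 6.72 and 5.68 on western diet and 4.96, 4.53, 4.64 and 4.26 on chow (difference 1.68 ± 0.39 SE, adjusted p = 0.00324), and the first western liver overlapped the chow livers.

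Stellate cell and myofibroblast markers rose in 9 of 16 and fell in 0 (median difference 0.50). Of the defining ones besides Col1a1, Reln rose by 0.35 ± 0.09 (SE). Pdgfrb, at background in all 4 chow livers, rose by at least 1.38-fold, a call lost in the authors' processed values. Lrat, at 0.39 ± 0.21 SE, and Des, at 0.29 ± 0.15 SE, did not pass. Vim, vimentin, had 7.53, 8.13, 8.0 and 7.02 on western diet and 6.24, 5.97, 6.71 and 5.91 on chow (difference 1.46 ± 0.23 SE, adjusted p = 0.00012), but Acta2, the actin of activated myofibroblasts, differed by 0.67 ± 0.33 SE, adjusted p = 0.134 with overlapping groups. Endothelial markers rose in 4 of 18, or 8 with median scaling, and fell in 1, beside 15.5% and 14.1% of all genes. Lyve1, a hyaluronan receptor of sinusoidal endothelium, rose by 1.62 ± 0.20 (SE), whereas Clec4g, a lectin of the same cells, was lower by 0.36 ± 0.09 (SE), a call lost with median scaling. The other defining endothelial markers did not pass, with Pecam1 at 0.32 ± 0.13 SE, Cdh5 at 0.07 ± 0.15 SE and Stab2 at 0.09 ± 0.11 SE. Among 8 cholangiocyte and progenitor genes 4 rose, or 2 in the authors' processed values. Cldn4, at background in all 4 chow livers, rose by at least 1.07-fold, a call lost in those values. Sox9, a defining cholangiocyte marker detected in all 4 livers of each diet, was lower but did not pass, at -0.52 ± 0.22 SE, adjusted p = 0.0752. Krt8, a keratin that hepatocytes also make, had 12.76, 12.71, 13.01 and 12.62 on western diet and 11.21, 11.21, 11.25 and 11.08 on chow (difference 1.59 ± 0.10 SE, adjusted p = 2.65e-09), while Krt7, a keratin of bile ducts, differed by -0.14 ± 0.19 SE, adjusted p = 0.627 and Krt19 was at background in all 8 arrays. The list of red cell, pancreas and muscle genes had 0 of 3 higher and 1 lower, or 0 lower with median scaling.

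Genes of the cytoskeleton, annexins and S100 proteins rose in 19 of 26 and fell in 0 (median difference 0.84). S100a11, a calcium-binding partner of annexins, had 10.80, 11.34, 11.71 and 11.18 on western diet and 6.99, 7.56, 7.75 and 7.69 on chow, a 13.6-fold rise (adjusted p = 1.52e-11). Anxa2, which organises membranes at the cell surface, had 11.64, 11.81, 11.95 and 11.34 on western diet and 7.85, 8.33, 8.08 and 8.01 on chow (difference 3.62 ± 0.18 SE, adjusted p = 9.70e-11), and Anxa5, another annexin, rose by 2.37 ± 0.12 (SE). Lysosomal genes rose in 15 of 23 and fell in 1 (median difference 0.52), led by Cd63, a tetraspanin of late endosomes, at 2.66 ± 0.20 SE, adjusted p = 2.35e-08. Cell cycle and DNA replication genes rose in 9 of 18 and fell in 1 (median difference 0.47). Ccnd1, cyclin D1, had 9.24, 10.46, 10.01 and 9.10 on western diet and 8.16, 8.22, 8.67 and 7.85 on chow (difference 1.48 ± 0.24 SE, adjusted p = 0.00016). Mcm6, a subunit of the replicative helicase, rose by 1.36 ± 0.21 (SE), and Gadd45b, a growth arrest gene, fell by 1.02 ± 0.30 (SE).

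**Figure D4:**
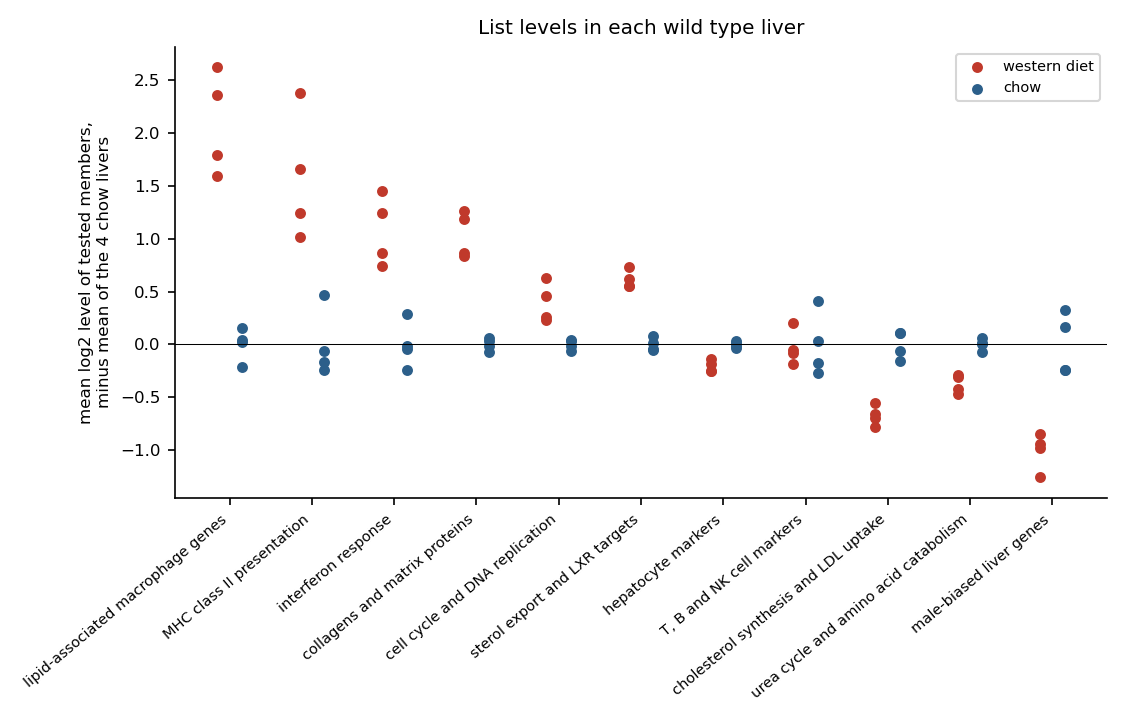
Mean level of the tested members of 11 lists in each wild type liver, as log2 intensity minus the mean of the 4 chow livers (y axis), with western livers in red at the left and chow livers in blue at the right of each list. Lipid-associated macrophage genes lie 1.60 to 2.62 above the chow mean in western livers, male-biased genes 0.85 to 1.26 below it, and the T, B and NK cell markers of the 2 diets overlap. The mean level of these last markers was close to background.

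The 4 western livers differed among themselves in how far they had moved. For the mean of the lipid-associated macrophage genes, relative to the chow mean, they stood at 1.79, 2.62, 2.36 and 1.60, and chow livers at -0.22, 0.02, 0.16 and 0.04. The interferon list gave 0.74, 1.45, 1.24 and 0.87 on western diet, and -0.24, -0.01, 0.29 and -0.04 on chow. Collagens and matrix proteins gave 0.86, 1.26, 1.19 and 0.84 on western diet, and -0.08, -0.01, 0.03 and 0.06 on chow. In all 3 lists the second western liver was the highest and the third came next. The order was not the same in every list, since male-biased genes stood lowest in the third liver, at -1.26, and nearest to chow in the second, at -0.85.

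Clock and iron genes moved little as groups. Of 14 circadian genes 2 rose, or 4 with median scaling, and 2 fell, beside 15.5% and 14.1% of all genes. Dbp, a clock output factor that swings widely over the day, had 10.36, 10.32, 11.40 and 11.96 on western diet and 7.38, 10.20, 9.17 and 7.17 on chow (difference 2.53 ± 0.80 SE, adjusted p = 0.0224), with chow livers that spread over more than the difference. Its call was lost without the first or the fourth chow liver and without the third or the fourth western liver, which left 1 rise in the list. Nfil3, its repressing counterpart, fell by 1.45 ± 0.28 (SE). The labels do not give the hour of sampling, and its part in these values was not tested. Of 15 iron genes 4 rose and 1 fell. Hamp2 led them, and Tfr2, an iron sensor of hepatocytes, fell by 0.52 ± 0.10 (SE).

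Whether the wild type response differed from that in SHP-/- liver was tested as an interaction, the diet change in SHP-/- minus that in wild type. It passed for 641 genes (7.05%), with 433 more negative in SHP-/- livers (4.76%) and 208 more positive (2.29%). Among the genes that had risen in wild type 411 passed, all with a smaller or opposite change in SHP-/-, and among those that had fallen 158 passed, again all toward a smaller or opposite change. These genes were picked by the same wild type arrays that the interaction subtracts, so the direction is not independent of the choice. S100a11 had a diet difference of 0.95 ± 0.16 (SE) in SHP-/- livers and 3.76 in wild type livers (interaction -2.81, adjusted p = 6.99e-07). Cidec had a diet difference of 0.34 ± 0.35 (SE) in SHP-/- livers and 3.10 in wild type livers (interaction -2.76, adjusted p = 0.00213). Hsd3b5 went in opposite directions, with 1.81 ± 0.48 (SE) in SHP-/- livers and -3.65 in wild type livers (interaction 5.46, adjusted p = 0.0001), and Cyp7b1 had 0.04 ± 0.28 (SE) in SHP-/- livers and -2.39 in wild type livers (interaction 2.44, adjusted p = 0.00106).

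For other genes no difference between the genotypes could be shown. Scd1 had a diet difference of 1.71 ± 0.14 (SE) in SHP-/- livers and 1.99 in wild type livers (interaction -0.28, adjusted p = 0.45), and Srebf1 one of 1.45 ± 0.29 (SE) in SHP-/- livers and 1.79 in wild type livers (interaction -0.34, adjusted p = 0.685). Cyp51 fell by 1.57 in SHP-/- livers and by 1.49 in wild type livers (interaction -0.08, adjusted p = 0.922), and G6pc by 1.09 in SHP-/- livers and by 1.55 in wild type livers (interaction 0.46, adjusted p = 0.324). By list, the interaction passed for 11 of 14 lipid-associated macrophage genes, 12 of 22 collagens and matrix proteins and 8 of 19 male-biased genes, and for 1 of 20 fatty acid and triglyceride synthesis genes, 2 of 18 cholesterol genes and 0 of 13 glucose handling genes, beside 7.05% of all genes.

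**Figure D5:**
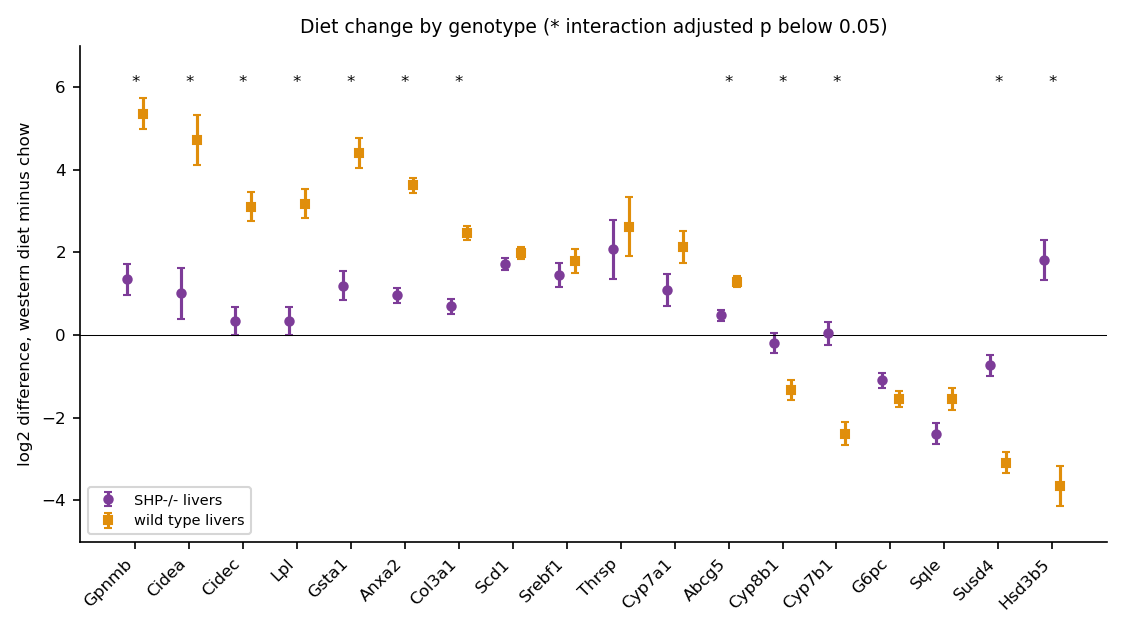
Western minus chow difference (log2, y axis) of 18 genes in SHP-/- livers (purple circles, left) and wild type livers (orange squares, right), with SE bars from the common fit; a star marks an interaction adjusted p below 0.05. Gpnmb, at 1.35 in SHP-/- and 5.35 in wild type, has a star, whereas Scd1, Srebf1, Thrsp, Cyp7a1, G6pc and Sqle have none.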

How the data were processed

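Total liver RNA of 16 mice was labelled as biotinylated cRNA and hybridised to Illumina BeadChips, 1 array per mouse, per the labels' protocols. Per the file headers, the deposited non-normalized table pairs each probe's intensity with a detection p-value, and the submitters' processing notes name BeadStudio, with no version. The authors' deposited series values are a linear intensity, already background-subtracted and scaled between arrays as far as the values show, and were used as an alternative. Their rank correlation with the same array of the non-normalized table was at least 0.999993.

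The 25697 probes were background-corrected with inferred negative controls, quantile-normalized and put on the log2 scale with neqc (limma 3.58.1, R 4.3.3, offset 16). A probe was kept when 4 or more of the 16 arrays had its detection p under 0.05 (13196 probes). Of these, 12421 had a gene symbol in the platform annotation (23978 of all probes had 1 symbol, 0 several and 1719 none), and 775 without one were left out. The brightest probe of each gene was used (9095 genes). For 771 genes that passed another kept probe existed, which had the opposite sign in 108 and passed in the opposite direction in 7. A gene counted as at background in a group when all of its probes missed detection in all 4 arrays, and its fold change is then a lower bound against the dimmest detected signal. One limma model with a mean per group (lmFit, eBayes with intensity trend, 12 residual degrees of freedom) gave two-sided tests with Benjamini-Hochberg adjustment over all genes. It was tested on simulated data. Single values per array were compared by exact permutation. Alternatives changed the normalization, filter, probe rule, variance model, arrays and replicates used. Slides were not analysed here as batches because the sources used here do not give them.

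Genes named are 30 key genes, the 12 largest rises and falls without overlap, the 4 largest passing members of each of 40 lists with the largest in the other direction and the brightest that did not pass, cell type markers and the 10 smallest interaction p-values. Members and lists were chosen with earlier results of these data known. Acta2, Adamts13, Cd74, Gbp2, Gbp3, Igf1, Msmo1 and Srebf2, and the genes of the closing observations, were named after their values had been seen. Promoter windows came from RefSeq (GRCm38.p6), matched by symbol for 7409 of the 9095 genes. Figures were drawn with matplotlib 3.10.9.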

Additional observations from a re-analysis of the deposited data

Results flagged for a closer look

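In 28 of 456 groups of 4 wild type livers tested 1 liver lay far from the other 3 by Dixon's ratio, and chance gives such a value in about 1 group in 20, so these are values to look at and not a pattern. The second western liver had the highest share of probes detected, at 51.1%. Among western livers, the second was low for Cidec (9.76), Apoa4 (13.80) and Ttr (15.03), the first was high for Hnf4a (11.33), and the third was high for Fkbp5 (8.51). The fourth western liver stood apart for Alas2 (10.02), Cd14 (6.88) and Hpd (11.63). All of these are normalized log2 intensities.

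Among chow livers, the first stood apart for C1qb (8.95), Oasl2 (5.54), Lpin1 (8.33) and Ptprb (9.29), and the second for Cdkn1a (9.52) and Chil3 (4.92). The third was high for Ccl4 (6.42), H2-Eb1 (9.13) and Mmp12 (5.08), and stood apart for Clec4g (11.07), F7 (8.93), Hpd (12.11) and Tfr2 (10.88). The fourth stood apart for Abcg5 (11.09), Apoc2 (9.43), Cidec (5.93), Cth (9.38), Scp2 (13.87) and Slco2a1 (9.10).

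For 74 of 226 named genes tested the diet change differed between the genotypes by the interaction test of limma (adjusted p below 0.05). Over all genes 7.05% passed. Many named genes were picked for large changes in the same wild type arrays that the interaction subtracts, and some for small interaction p-values. The count and the directions are therefore not independent of the choice. Each value is the diet difference in SHP-/- livers minus that in wild type livers, on the log2 scale. Genes of lipid handling gave -3.71 for Cidea, -2.84 for Lpl, -2.76 for Cidec, -1.64 for Osbpl3, -0.88 for Pltp, -0.82 for Abcg5, -0.71 for Npc2 and 2.17 for Elovl3. Bile acid, steroid and drug enzymes and their receptor gave 5.46 for Hsd3b5, 2.44 for Cyp7b1, 1.14 for Cyp8b1, 1.38 for Cyp2c37, 1.06 for Nr1i3 and -1.65 for Cyp17a1. Glutathione and stress genes gave -3.20 for Gsta1, -1.56 for Gsta2, -0.91 for Nfe2l2 and -2.05 for Atf3.

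Macrophage and lysosome genes among these 74 gave -4.01 for Gpnmb, -2.89 for Mmp12, -2.78 for Trem2, -2.46 for Cd63, -2.20 for Lgals3, -1.71 for Adgre1, -1.36 for Cd9, -1.28 for Laptm5, -1.27 for C1qb, -1.16 for Ctsk, -1.15 for C1qc, -0.81 for Slc40a1 and -0.75 for Vsig4. Immune signalling genes gave -2.16 for Lcn2, -2.09 for Ccl4, -1.71 for Tlr2, -1.62 for Ifi27l2a, -1.31 for Oasl2, -1.30 for Cd14, -1.27 for Tnfaip3, -1.21 for Usp18, -1.13 for Cxcl10 and -1.10 for Ly86.

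Matrix and mesenchymal genes gave -1.77 for Col3a1, -1.73 for Nid1, -1.61 for Timp1, -1.54 for Col1a1, -1.40 for Vim, -0.91 for Cygb, -0.88 for Mmp14, -0.85 for Gas6 and -0.71 for Igfbp7. Endothelial genes gave -1.69 for Lyve1, -0.64 for Plvap and -0.58 for Vwf. Genes of the cell surface, cytoskeleton and cell cycle gave -3.39 for Ly6d, -3.39 for Sdcbp2, -2.81 for S100a11, -2.66 for Anxa2, -1.69 for Anxa5, -1.36 for Krt8, -0.94 for Krt18, -1.26 for Ccnd1 and -1.26 for Mcm6. Hepatocyte products and receptors were mostly more positive in SHP-/- livers, with 2.35 for Susd4, 2.03 for Obp2a, 1.72 for Avpr1a, 1.68 for C8b, 1.25 for F11, 0.95 for Hpd, 0.92 for F7, 0.69 for Ghr and 0.50 for F10, and with -1.0 for Igfbp3 as the exception. Alas2, of red cells, gave 0.69 and Cela1, of the pancreas, 1.24.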

How the results depend on the processing

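Of the 166 named genes that passed, 138 passed under all 19 other settings, 28 missed the threshold under at least 1, and 15 of these under at least 1 fit without a replicate. Scaling by array medians in place of quantiles left 290 genes lower in all. It also gave lower counts of falls in bile acid transport (1), PPARalpha targets (3), glucose handling (3), methionine metabolism (3), endoplasmic reticulum stress (3), complement and coagulation (5) and red cell, pancreas and muscle genes (0), and higher counts of rises in circadian (4) and endothelial genes (8). The 8 wild type arrays alone gave 11 falls in cholesterol synthesis and 2 rises in neutrophil genes. The authors' processed values gave 2 rises in neutrophil genes, 2 in cholangiocyte genes and 1 in circadian genes, which was also 1 with a robust variance prior. The cause was not tested. Mup5, which did not pass at 0.15, was lower by -0.55 when all its probes were averaged. Without 1 replicate at a time the counts ran from 3 to 6 falls for PPARalpha targets, 1 to 2 rises for circadian genes and 2 to 4 for neutrophil genes, and, without 1 wild type liver at a time, from 2241 to 2442 genes in all. Same-numbered livers of the 2 diets deviated together with r of 0.186, -0.139, -0.0254 and -0.100. The highest r of these western livers with a chow liver of another number was 0.0269, 0.148, 0.0975 and 0.126. Only the first same-numbered pair was above this, and such correlations cannot settle whether the numbers pair the mice. With the replicate number as a block 2672 genes passed (1387 higher and 1285 lower) and circadian rises numbered 4. In the 15 lists with 0 falls at most 2 members were lower at an unadjusted p below 0.05, and in the 8 with 0 rises at most 3 were higher. With 4 arrays per group precision is limited, and probes near background understate differences.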

Other observations

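Several genes that glucocorticoids are known to induce were lower on western diet. They were picked after their values had been seen, so they are a description and no group test. Tsc22d3, the leucine zipper protein GILZ, had 9.68, 9.69, 10.21 and 9.16 on western diet and 11.17, 11, 10.67 and 11.19 on chow (difference -1.33 ± 0.21 SE, adjusted p = 9.32e-05). Ddit4, an inhibitor of mTORC1, had 6.88, 6.96, 7.52 and 6.10 on western diet and 7.84, 8.04, 7.52 and 8.76 on chow (difference -1.17 ± 0.37 SE, adjusted p = 0.0228), with overlap at the third liver of each diet. Mt2, a metallothionein, fell by 1.13 ± 0.37 (SE), but Mt1, its neighbour with the same inducers, had a difference of -0.11 ± 0.27 SE, adjusted p = 0.795, and Sgk1, a kinase of the same kind of response, one of -0.30 ± 0.14 SE, adjusted p = 0.11. In Fkbp5, Lpin1, Tsc22d3 and Ddit4 the third western liver was the highest of its group, and the cause was not tested.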
